A study of Mus musculus with 2 samples.

Results

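The 35 genes described here encode proteins of homologous recombination (14 genes), the Fanconi anaemia pathway (8), mismatch repair (3), end joining (5) and the damage checkpoint (5). They were taken by gene symbol from the 18220 genes of a single deposited table, and all 35 were found. The genes were chosen with earlier results of these data known. RNA was sequenced from B16 cells, a pigmented mouse melanoma line, in 2 libraries, 1 of control-treated cells and 1 of cells treated with LY500307, a compound that activates estrogen receptor beta in preference to the alpha receptor. Both libraries came from the same line with no genetic change named in the labels, and neither the dose, the duration nor the number of cultures behind a library is stated in the sources at hand. A single library per group allows no test of the treatment, so each difference below lacks a replicate check and describes these 2 libraries.

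Cells repair a break across both strands of DNA either by homologous recombination, which copies the intact sister chromatid after replication, or by end joining, which rejoins the ends in any phase. The Fanconi pathway unhooks crosslinks that stall replication forks, and mismatch repair removes copying errors behind the fork. The checkpoint kinases ATM and ATR halt the cycle while repair proceeds. Many recombination and Fanconi genes are transcribed mostly around S phase, so their RNA is often higher in dividing cells.

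Depth was 16704950 reads for the control and 14698853 for the LY500307 library, recovered as whole numbers from the deposited values. The 35 genes together held 28605 and 24322 of these reads, which is 0.171% and 0.165%. Levels are in CPM, read counts scaled by 1 factor per library so that a library sums to about 1000000, and 1 read was worth 0.0603 CPM in the control and 0.0676 CPM in the LY500307 library. A log2 ratio is the LY500307 level over the control level, with no pseudocount. The range after it is its exact 95% interval on the log2 scale, which covers counting error only, and PCR copies of a molecule cannot be told from separate molecules here. A gene is called lower or higher when that interval lies wholly below or above 0. All 10 melanocyte markers were measured, among them Tyr at 732.6 and 702.2 CPM, and their median log2 ratio was -0.10, with intervals below 0 for 8 and above 0 for 2. Of 15 leukocyte markers 3 were in the table, with 11 reads in each library, and of 11 fibroblast and endothelial markers 5 were, with 206 and 190 reads.

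Of the 35 repair genes, 13 were called lower in the LY500307 library, 4 were called higher, and 18 had an interval that includes 0. The median log2 ratio of the 35 genes was -0.10, the same to 2 decimals as that of the melanocyte markers, against -0.01 over the 12243 genes whose mean level reached 1 CPM, a minimum that all 35 passed. The ratio was below 0 for 27 of the 35, against 51.7% of all measured genes. The interval lay below 0 for 13 of the 35, or 37.1%, against 19.2% of all measured genes. It lay above 0 for 4, or 11.4%, against 17.2%. Among the 9157 genes within the same range of mean CPM, 4.79 to 187.8, these shares were 19.1% and 17.6%. Differences were small. Fancb was 1.5-fold or more lower and no member was 1.5-fold or more higher, where 2.84% and 4.13% of all measured genes passed those limits, and 0.939% and 1.67% of the genes in the same CPM range.

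**Figure D1:**
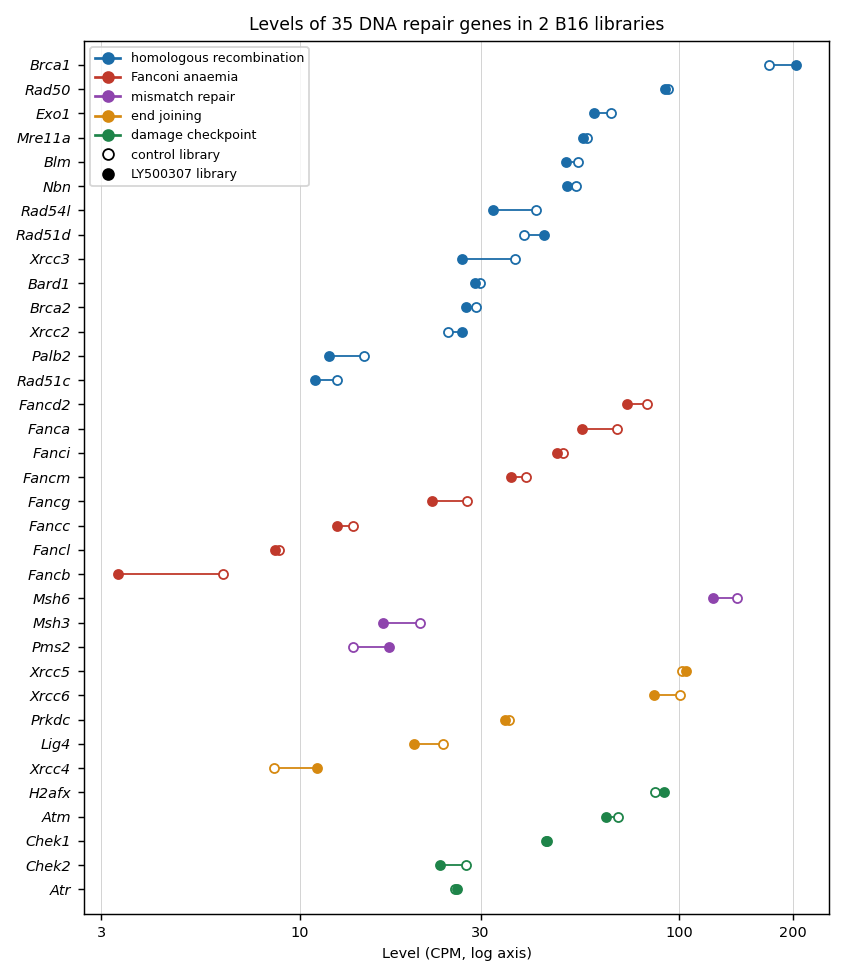
Level in CPM, on a log axis, of each of the 35 genes in the control library (open circles) and the LY500307 library (filled circles), ordered by control level within 5 colour-coded groups. Brca1 is the highest at 172.6 and 203.1 CPM and Fancb the lowest at 6.27 and 3.31 CPM; all 8 Fanconi genes have the filled circle on the left.

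Per kilobase of the longest annotated transcript, the levels of the 35 genes spread widely. H2afx, which encodes the histone variant phosphorylated at breaks, was the highest, at 62.5 and 66.1 CPM per kb in the control and LY500307 libraries. The Ku gene Xrcc5 followed at 39.8 and 40.9 CPM per kb. Msh6, at 33.5 and 28.9, and the other Ku gene Xrcc6, at 30.5 and 26.1, stood above Brca1 in the control and below it in the LY500307 library. Brca1 was at 26.3 and 30.9 CPM per kb, far above its partner Bard1 at 5.28 and 5.12 and above Brca2 at 2.72 and 2.56. Fancb was the lowest in both libraries, at 2.10 and 1.11 CPM per kb, and Pms2, Brca2, Prkdc and Xrcc4 lay between 2.24 and 3.24 over both libraries.

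Sequences before the RefSeq start of 3 genes are shown as examples of letters of the type bound by E2F, the factors that drive S-phase transcription. The examples were picked among genes called lower, so that they say nothing of a link between the letters and the ratio. The letters searched were TTTCCCGC, TTTGGCGC and TTTCGCGC on both strands, in windows from 250 bases before to 50 after each start in RefSeq, build GRCm38.p6, another build than the mm9 named for the reads. Each sequence is the 30 bases around the match, 5′ to 3′ on the gene's strand, and capitals mark the matched letters.
Fancg: ttcttttcagTTTCCCGCggaaccgtctct
Chek2: gggattagccGCGGGAAAccaagacgtcga
Xrcc6: gggggtggaaGCGGGAAAtgcgagtgggcg
The bases of Fancg lie at chr4:43010334-43010363 on the minus strand with the match 52 bases before the start. Those of Chek2 lie at chr5:110839821-110839850 on the plus strand with the match 152 bases before it, and those of Xrcc6 at chr15:82016313-82016342 on the plus strand with the match 46 bases before it. In GENCODE M21, all 30 bases printed for Fancg and for Xrcc6 fall in an exon of the same gene. Such letters also occur in the windows of Brca2, Bard1 and Rad51c, whose intervals include 0, and of Msh3 and Msh6, which were called lower. They occur in 1.84% of all 32851 RefSeq windows and for 4.29% of the 9017 measured genes with an entry. An entry was found for 27 of the 35 members, 77.1%, and for 73.7% of all measured genes. The letters occur for 8 of these 27 members, which do not stand for all 35. Exo1, Fancd2, H2afx, Nbn, Prkdc, Rad50, Rad51d and Xrcc2 had no entry. A match is a description of letters and not of binding.

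In homologous recombination the lower genes were Xrcc3, Rad54l, Palb2 and Exo1, while Brca1 and Rad51d were higher. These calls are 28.6% lower and 14.3% higher, against 19.2% and 17.2% of all measured genes. Of the 14 genes, 11 had a ratio below 0, and the median was -0.08. Xrcc3, whose product joins that of Rad51c in a complex of recombination mediators, had 614 control and 396 LY500307 reads, or 37.0 and 26.8 CPM. Its log2 ratio was -0.47 (-0.65 to -0.28), the lowest of the recombination group. Rad54l, a motor protein that helps the invading strand to pair with its template, was at 41.9 and 32.4 CPM on 696 and 479 reads, a log2 ratio of -0.37 (-0.55 to -0.20). Palb2, which bridges BRCA1 to BRCA2, was at 14.8 and 12.0 CPM, and its interval came close to 0 (-0.30, -0.59 to -0.02). Exo1, an exonuclease that trims DNA ends for recombination and also acts in mismatch repair, was at 66.4 and 59.8 CPM, with an interval of -0.28 to -0.02.

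Brca1 went against most of its pathway. Its product, with BARD1, forms a ubiquitin ligase that favours end resection. It had 2863 control and 3006 LY500307 reads, although the LY500307 library was the smaller one, or 172.6 and 203.1 CPM, a ratio of 1.18 (1.12 to 1.24) and a log2 ratio of 0.24 (0.16 to 0.31). Rad51d, which encodes a recombination mediator, was also higher, at 39.1 and 44.2 CPM with a log2 ratio of 0.18 (0.02 to 0.34). Its partner gene Xrcc2 was at 24.7 and 26.8 CPM, with an interval that includes 0. Rad51c, another mediator gene, was at 12.5 and 10.9 CPM with a log2 ratio of -0.20 (-0.50 to 0.11). Of these 4 mediator genes Xrcc3 was thus called lower, Rad51d higher and the others neither. The 14 genes, Brca1 included, summed to 726.2 control and 721.7 LY500307 CPM, a log2 ratio of -0.01 (-0.05 to 0.03) for the sum.

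The remaining recombination genes each had similar levels in the 2 libraries. The genes of the complex that senses and tethers broken ends, Mre11a, Rad50 and Nbn, had log2 ratios of -0.03, -0.02 and -0.08, each with an interval that includes 0. Rad50 was at 93.4 and 92.2 CPM, Mre11a at 57.1 and 55.9 and Nbn at 53.7 and 50.7. Brca2, which prepares resected DNA for strand invasion, was at 29.2 and 27.5 CPM (-0.09, -0.28 to 0.11). Bard1 was at 29.9 and 29.0 CPM, and Blm, a helicase that dissolves recombination intermediates, at 54.1 and 50.4. For these genes a difference of the size seen in Xrcc3 would lie outside the interval.

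The Fanconi group was the only one of the 5 in which every member had a ratio below 0. The median of its 8 genes was -0.16. Intervals lay below 0 for 4 of them, or 50%, and above 0 for none, against 19.2% and 17.2% of all measured genes. Fancb, an X-linked gene whose product sits beside the ubiquitin ligase FANCL in the core complex, had 104 control and 49 LY500307 reads, or 6.27 and 3.31 CPM. Its log2 ratio of -0.92 (-1.44 to -0.42) was the lowest of the 35 genes and lay below the 1st percentile of all measured genes. It also rests on the fewest reads. Fanca, a subunit of the same core complex, was at 68.5 and 55.5 CPM on 1137 and 821 reads, a log2 ratio of -0.30 (-0.44 to -0.17). Fancg, which binds FANCA directly, was at 27.5 and 22.4 CPM (-0.30, -0.51 to -0.09). The log2 ratios of Fanca and Fancg differed by -0.00 (-0.25 to 0.24).

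FANCD2 and FANCI form the pair that the core complex tags with ubiquitin at a crosslink. Fancd2 was at 82.4 and 72.8 CPM on 1367 and 1078 reads, a log2 ratio of -0.18 (-0.29 to -0.06). Fanci was at 49.5 and 47.8 CPM, a log2 ratio of -0.05 (-0.20 to 0.10), and its difference from Fancd2 was within counting error. The ligase gene Fancl was at 8.80 and 8.58 CPM, Fancc, another core subunit, at 13.9 and 12.6, and Fancm, a translocase that anchors the core complex on DNA, at 39.4 and 36.0. The intervals of all 3 include 0, and that of Fancl, from -0.39 to 0.32, would also hold ratios like those of Fanca and Fancg. Summed over all 8 genes the level was 296.3 control and 259.0 LY500307 CPM, a log2 ratio of -0.19 (-0.26 to -0.13).

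**Figure D2:**
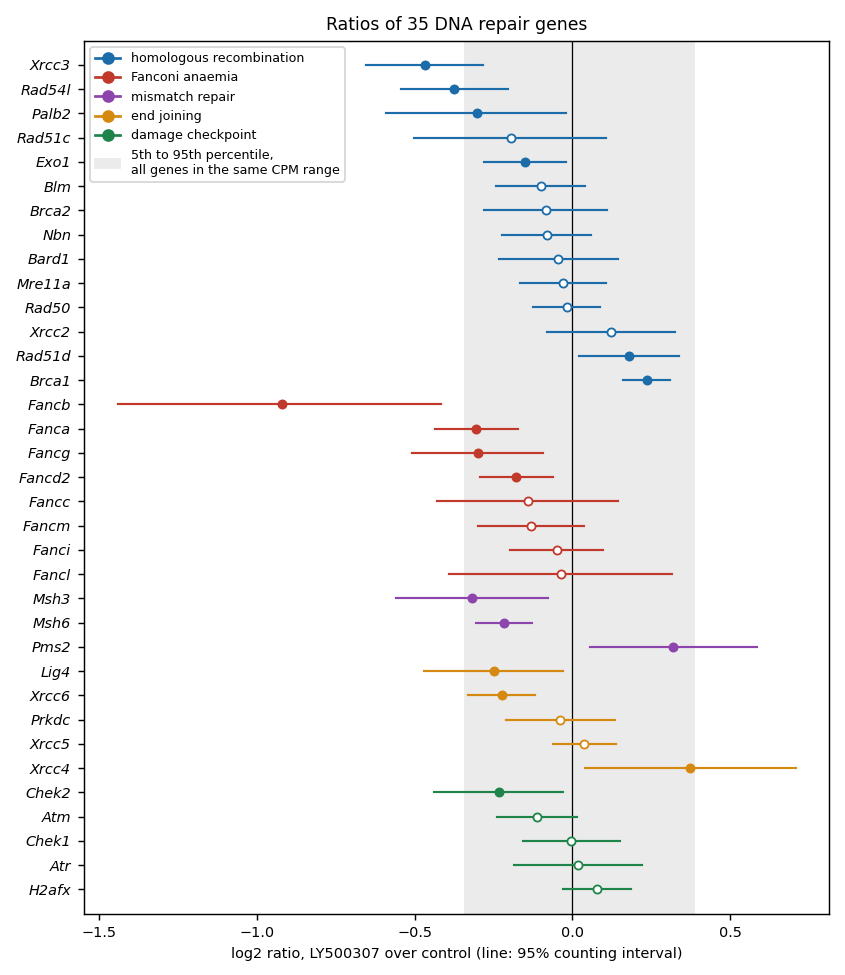
Log2 ratio of LY500307 over control for each gene, by group, with its exact 95% counting interval; filled points have an interval clear of 0, and the grey band runs from the 5th to the 95th percentile of the 9157 genes in the same CPM range, -0.34 to 0.39. Fancb, Xrcc3 and Rad54l lie left of the band, and Brca1, Rad51d, Pms2 and Xrcc4 are the filled points right of 0.

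Mismatch repair was divided between recognition and cutting. Both recognition genes were lower and the nuclease gene was higher, with 3 genes in the group and a median of -0.22. Msh6, whose product helps to find mispaired bases, was among the most deeply counted members, on 2366 and 1816 reads. Its level was 142.6 control and 122.7 LY500307 CPM, a log2 ratio of -0.22 (-0.31 to -0.13). Msh3, which acts at small loops, was at 20.7 and 16.6 CPM on 344 and 246 reads (-0.32, -0.56 to -0.08). Pms2, which encodes the nuclease that cuts the new strand, went from 229 reads to 255, or 13.8 and 17.2 CPM, a log2 ratio of 0.32 (0.06 to 0.58).

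In these 2 libraries, end joining genes whose products share a complex had unlike ratios. Ku, the ring that binds broken ends, is made of the products of Xrcc5 and Xrcc6. Xrcc6 was at 100.7 and 86.2 CPM on 1670 and 1275 reads, a log2 ratio of -0.22 (-0.33 to -0.12). Xrcc5 was at 101.8 and 104.5 CPM on 1689 and 1547 reads, a log2 ratio of 0.04 (-0.06 to 0.14). The final ligation is made by LIG4 with its scaffold XRCC4. Lig4 was at 23.9 and 20.1 CPM on 396 and 297 reads (-0.25, -0.47 to -0.03). Xrcc4 was at 8.56 and 11.1 CPM on 142 and 164 reads (0.37, 0.04 to 0.71), the highest ratio of the 35. Neither Lig4 nor Xrcc4 was called with a 99% interval. Prkdc, the kinase that Ku recruits, was at 35.7 and 34.8 CPM (-0.04, -0.21 to 0.13). The median of the 5 genes was -0.04. Calls were 40% lower and 20% higher, against 19.2% and 17.2% of all measured genes.

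**Figure D3:**
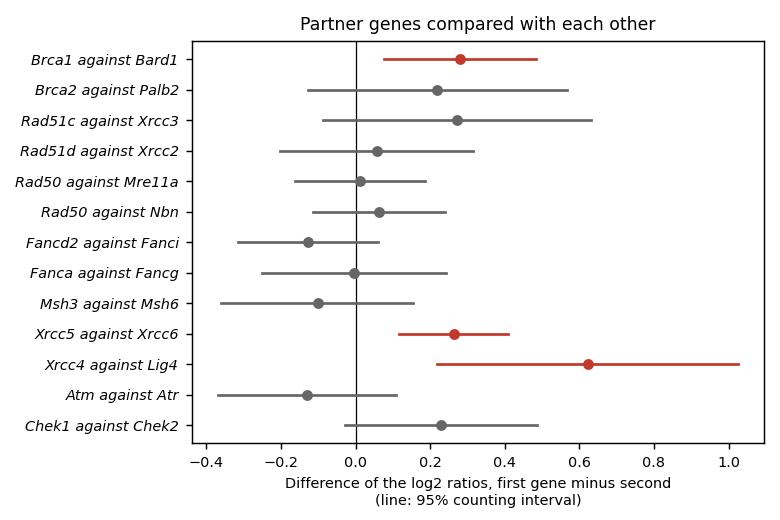
Difference between the log2 ratios of 2 genes whose products act together or in parallel, first gene minus second, with its exact 95% counting interval; the scaling of the libraries cancels in this quantity. Red marks the 3 of 13 pairs whose interval excludes 0, Brca1 against Bard1, Xrcc5 against Xrcc6 and Xrcc4 against Lig4.

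Partner genes were compared directly, in 13 pairs chosen after their values were seen. The interval of the difference of log2 ratios, which carries no adjustment for the number of pairs, excluded 0 for 3 of them. Brca1 exceeded Bard1 by 0.28 (0.08 to 0.48), Xrcc5 exceeded Xrcc6 by 0.26 (0.12 to 0.41) and Xrcc4 exceeded Lig4 by 0.62 (0.22 to 1.03). Per kilobase, Xrcc5 was 1.30 times the level of Xrcc6 in the control and 1.57 times in the LY500307 library, and Xrcc4 was 0.527 and 0.811 times the level of Lig4. Pairs with a difference near 0 and a narrow interval were Rad50 and Mre11a (0.01, -0.16 to 0.19) and Rad50 and Nbn (0.06, -0.11 to 0.24).

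Of the 5 damage checkpoint genes 1 was called lower, or 20%, and none higher, against 19.2% and 17.2% of all measured genes. Their median log2 ratio was -0.00, with 3 of 5 ratios below 0. Chek2, the kinase activated by ATM, was at 27.5 and 23.4 CPM on 456 and 346 reads, a log2 ratio of -0.23 (-0.44 to -0.03). Chek1, the kinase activated by ATR, was at 44.8 and 44.7 CPM on 743 and 661 reads (-0.00, -0.16 to 0.15). The difference of Chek1 from Chek2 was 0.23, with an interval of -0.03 to 0.49 that includes 0. Atm was at 69.3 and 64.1 CPM (-0.11, -0.24 to 0.01) and Atr at 25.6 and 25.9 (0.02, -0.18 to 0.22). H2afx was at 86.5 and 91.4 CPM (0.08, -0.03 to 0.19).

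The other genes of the same pathways, taken as whole lists, lay on the lower side as well, with end joining as the exception. Of 77 such genes 74 were measured. Their median was -0.09, with intervals below 0 for 25 and above 0 for 4, against the 19.2% and 17.2% of all measured genes. Other checkpoint genes had a median of -0.12 and intervals below 0 for 10 of 18, among them Wee1, a kinase that restrains mitotic entry (-0.26), and Rad9a, a subunit of the checkpoint clamp (-0.25). Other recombination genes had a median of -0.10 and intervals below 0 for 10 of 26. In that list Mcm8, a helicase gene, was at -0.39, and Wrn, the Werner syndrome helicase gene, at 0.47 (0.23 to 0.71). Other Fanconi genes had a median of -0.08 and intervals below 0 for 3 of 13, or 23.1%. These included the nuclease scaffold gene Slx4 (-0.27) and the nuclease gene Ercc4 (-0.18). Over 4 other mismatch repair genes the median was -0.06. Other end joining genes had a median of 0.05, with Aplf, an end-processing scaffold, at 0.36 and Rif1, which protects ends from resection, at -0.16.

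**Figure D4:**
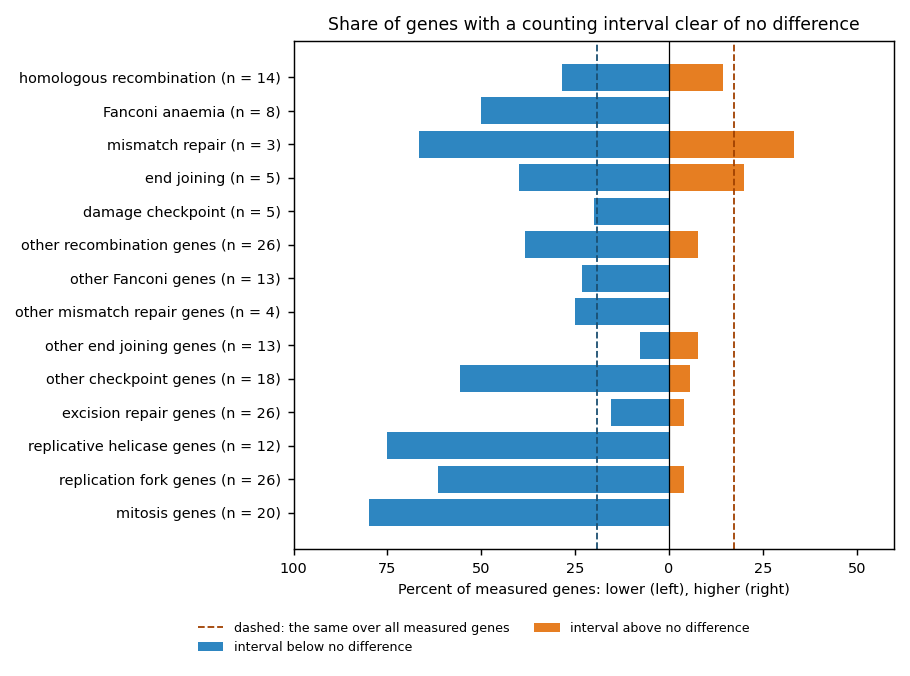
Percent of the measured genes of each list whose 95% counting interval lies below (blue, left) or above (orange, right) no difference, with the number measured; dashed lines mark 19.2% and 17.2%, the same shares over all 12243 measured genes. Fanconi genes have 4 of 8 on the left and none on the right, and the replicative helicase, replication fork and mitosis lists have 9 of 12, 16 of 26 and 16 of 20 on the left.

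Most genes on the lists of DNA replication and cell division were called lower in the same comparison, and the differences between lists were not tested. The 12 replicative helicase genes had a median log2 ratio of -0.22 with intervals below 0 for 9, the 26 replication fork genes -0.17 with 16, and the 20 mitosis genes -0.15 with 16. Excision repair, which acts on damaged bases in any phase, had a median of -0.07 over 26 genes with intervals below 0 for 4, or 15.4%. Over all measured genes the share with an interval below 0 was 19.2%. Intervals narrow with depth, which differs between these lists. In a bulk library fewer cells in S phase and less RNA of these genes per cell cannot be told apart, and the part of either in the ratios of the repair genes was not tested.

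**Figure D5:**
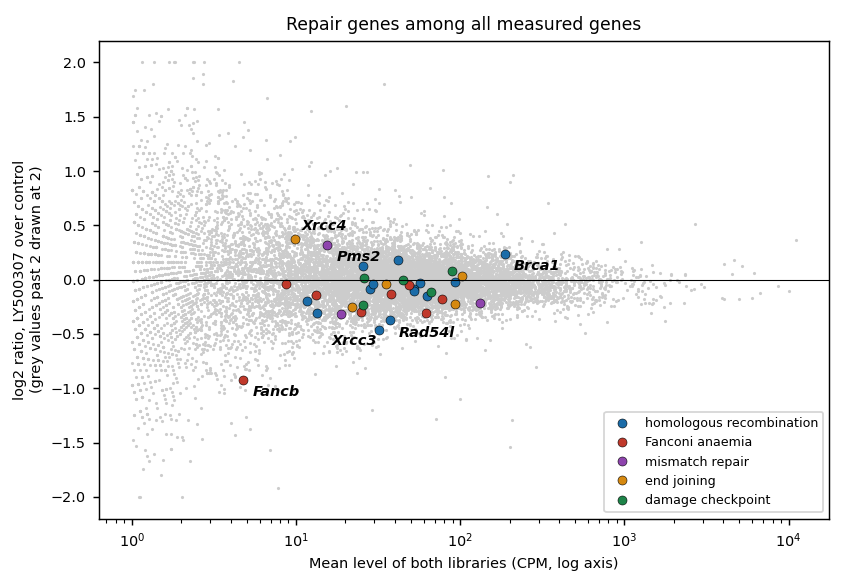
Log2 ratio of LY500307 over control against the mean level of both libraries (CPM, log axis) for the 12243 measured genes in grey and the 35 repair genes in colour by group; grey values past 2 are drawn at 2. Most coloured points lie just below 0, inside the grey cloud, with Fancb at the left at -0.92 and Brca1 at the right at 0.24.

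Reads of several members could be shared with neighbours. No source at hand states whether the counting kept the strands apart, and a few overlaps lie on the same strand. In GENCODE M21, 18 of the 35 genes share exonic bases with another gene. Rad54l shares 1184 bases, 15.4% of its exonic length, with Lrrc41, which had a log2 ratio of -0.00. Fanca shares 920 with Zfp276, at 0.08, Fanci 921 with Polg, at -0.16, and Xrcc6 344 with Desi1, at 0.06. Xrcc4 shares 112 with Tmem167, at -0.14. On its own strand Pms2 shares 394 with Gm42421, not a listed gene, and 85 with Rsph10b, at 3 control reads and 1 LY500307 read. Mre11a shares 154 with Ankrd49, at -0.58, and Fancc 185 with 2010111I01Rik, at -0.53, so both neighbours had lower ratios than the member. The part of these neighbours in the members' ratios was not tested. Near-identical copies, here matches over at least 50% of the shorter transcript, were found in other annotated genes for Exo1, Rad51c and H2afx. None of these other genes is listed. Exo1 and Rad51c matched the same entries, Gm25072 and Gm27826, and Gm44335, found for H2afx, overlaps H2afx itself.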

How the data were processed

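Stranded libraries were made from total RNA after removal of ribosomal RNA, per the labels' protocols. Per the submitters' processing notes, CASAVA 1.8, Bowtie2 and mouse build mm9 were used; no source at hand states the counting tool, annotation, filters or scaling. The deposited values hold 1 signal for each gene, read counts multiplied by 1 factor per library. Whole reads, within 1% of a read, were recovered for 100% of values in each library. Symbols were matched for 18177 of 18224 identifiers and entries sharing a symbol were summed. Ratios used the scaling as deposited, with exact Clopper-Pearson intervals of the reads at 95%. No test between treatments was made. An exact binomial test of the reads, which compares the libraries only, called 1735 genes lower and 1501 higher at an adjusted p under 0.05. Lengths, overlaps and copies (blastn 2.17.0, at least 95% identity over 100 bases and 50% of the shorter transcript) came from GENCODE M21, another build. Members and lists were chosen with earlier results of these data known. All members are named, with full values for up to 4 per group by largest absolute log2 ratio; of each other pathway list, up to 2 genes with an interval clear of 0 are named, and a few items that these rules would take are not reported here. Calculations were tested on simulated data. The software was scipy 1.17.1, numpy 2.4.6, pandas 2.3.3, matplotlib 3.10.9 and Python 3.11.15.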

Additional observations from a re-analysis of the deposited data

How the results depend on the processing

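No paired analysis was possible because each group is a single library. Other scalings and centring by transcript length and GC content kept the direction of all 17 called members. These changes were small, and Exo1, the called member nearest 0, moved from -0.15 to -0.13 at most. Pseudocounts, expression minimums and leaving out genes with near-identical copies cannot change a direction, so they are no check of it. Fancb had no value at a mean of at least 5 CPM and Exo1 none without copies. The counts below and above 0 were 13 and 4. With a 99% interval, or with the binomial test adjusted over all measured genes, they were 9 and 1. The genes were the same under both, with Brca1 above. Chek2, Exo1, Lig4, Palb2, Pms2, Rad51d and Xrcc4 were no longer called. Over all measured genes the shares were 13.3% below and 11.3% above at 99%, and 14.2% and 12.3% with the binomial test. Centring left 10 below, without Palb2, Exo1 and Lig4, where 17.6% of all genes lay below. Without members that share exonic bases with another listed gene, an alternative chosen after seeing the data, the counts below and above 0 were 7 and 2 of 21 members. The shares over all genes in that setting were 19.2% and 17.2%. The Fanconi median was then -0.30, on Fancb, Fancd2 and Fancg alone, and no mismatch repair gene was left. Fancb was the only member past 1.5-fold; the count was 0 at a mean of at least 5 CPM, where Fancb is left out, and 0 at 2-fold. At a log2 limit of 0.32 it was 3 lower and 1 higher, and the share over all genes was not computed at that limit. With reads over each library's own total the median of other pathway genes was -0.067 and that of all measured genes 0.01. The signs of Chek1 and Rad50, both near 0, flipped with scaling. Depth limits Fancb, Fancl and Xrcc4 most.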
